A study of Homo sapiens with 6 samples.

Results

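H929 (NCI-H929) is an established human multiple myeloma cell line, and the 3 control libraries described here give its mRNA profile without added nuclease. They are the 3 of the 6 libraries of the series whose labels give the cleavage assay as control. The rule that picked them used that label and no measured value, though earlier results of these data were known at the time. In each control reaction 5 μg of total RNA was kept for 1 h at 37 °C in the cleavage reaction without recombinant IRE1, followed by 5 min at 95 °C, and poly(A)-containing mRNA was then purified and sequenced. The series was made to find mRNAs cut by IRE1, and the other 3 libraries, which received the enzyme, were not compared with the controls here. The design text calls the samples biological replicates, and no label ties a library to its own culture or extraction, so the spread given below is the spread between these 3 samples. All values come from RNA of a line in culture that had also been heated in the reaction buffer, and in such bulk RNA fewer cells of a type and less RNA per cell cannot be told apart.

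A plasma cell is the end stage of the B lineage and is built to secrete a single antibody. Its programme is held by the transcription factors IRF4, Blimp-1 (gene PRDM1) and XBP1, while genes of the B cell stage are switched off. The secretory load is handled in the endoplasmic reticulum (ER), where chaperones fold the antibody chains, the translocon admits them, ER-associated degradation removes failed products, and the unfolded protein response, with IRE1 as a sensor, adjusts the capacity. Myeloma cells keep most of this programme and add cell division and cancer genes.

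The depth on genes was 25678499, 22433916 and 21144515 counts in replicates 1, 2 and 3. A gene's count scaled to a library total of 1000000 gives its CPM, which serves for comparing libraries. Levels of different genes are compared as TPM, for which the count is divided by the length of the gene's exons before it is scaled to the same total. A count of 0 allowed up to 3 counts, which was 0.117 to 0.142 CPM per library, and this limit covers counting error only. Of 19404 protein-coding genes, 11300 (58.2%) were expressed, defined as at least 1 CPM in every library, and 7036 (36.3%) were silent, defined as under 0.5 CPM in every library. Another 1068 lay between these limits, and 4250 (21.9%) had no count in any of the 3 libraries. The median level of the expressed genes was 16 TPM, with 2.06 TPM at their 10th and 114 TPM at their 90th percentile. The exon length of a gene depends on the annotation, and with the length of the canonical transcript 53 of 271 named or listed genes of at least 1 TPM moved up by more than 1.5 times and 84 moved down by more than 1.5 times. This alternative was chosen after the data were seen. A fall can come from the rescaling to 1000000 and not from the gene's own length. MT-CO2 has the same length either way, yet moved from 38227 to 21183 TPM.

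The most abundant mRNAs came from mitochondria, iron storage, the translation machinery, antibody synthesis and cell adhesion. MT-CO2, which encodes a subunit of cytochrome c oxidase, had the highest level, at 37443, 38487 and 38751 TPM in the 3 libraries. FTL, the light chain of ferritin, followed at 30442, 31142 and 31640.4 TPM, with 16 pseudogenes named after it that could hold some of its reads. MT-ND4, a subunit of the respiratory NADH dehydrogenase, came next at 27259 ± 333 TPM (SD, n = 3). The ranges of these 3 genes did not overlap. Of the 15 genes with the highest TPM, the rest outside the mitochondrial genome were IGKV3-15, RPS27, JCHAIN, EEF2, GAPDH and ITGB7. With the length of the canonical transcript, 13 of the 20 genes with the highest TPM stayed among the 20 highest.

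**Figure D1:**
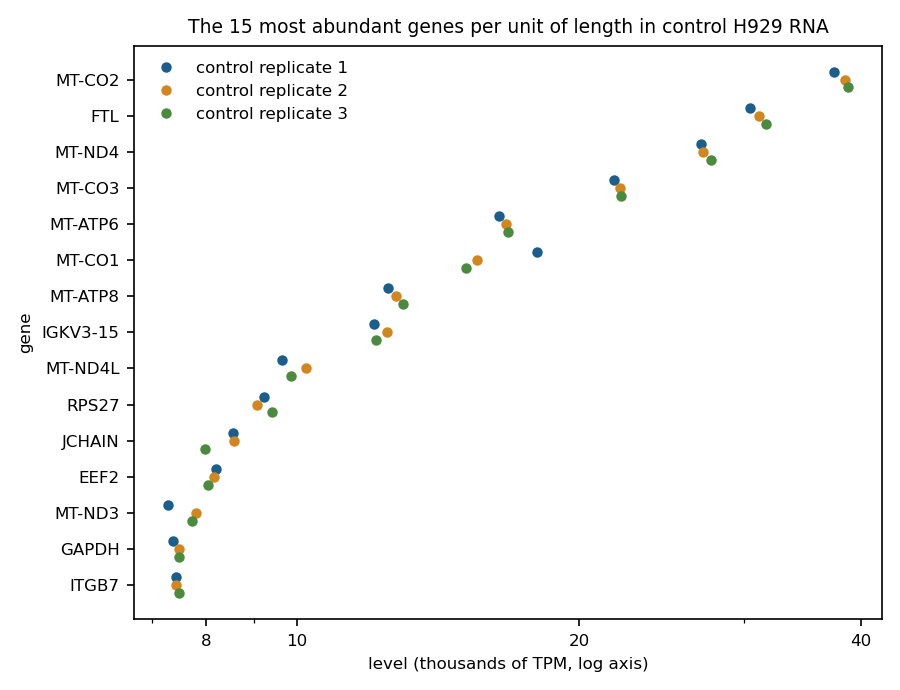
Level in TPM (in units of 1000 TPM, log axis) of the 15 genes with the highest mean, with 1 point for each control library. MT-CO2, FTL and MT-ND4 lead at 38227, 31075 and 27259 TPM, the 3 points of most genes nearly coincide, and MT-CO1 is the gene with the widest gap between its points.

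A small number of genes held much of each library. The 10 genes with the most counts took 8.43% ± 0.0351 (SD, n = 3) of the counts on genes, and 533 genes held 50% of them. Ribosomal protein genes, 81 of 85 of which were expressed, took 11.5% ± 0.129 of the counts. The 13 mitochondrial mRNAs took 4.72% ± 0.0422, and long noncoding RNAs took 0.889% ± 0.00413. By counts alone, without regard to length, EEF1A1 was first, with 13388, 13139 and 12670 CPM. It carries aminoacyl-tRNA to the ribosome, and its level is uncertain because 48 pseudogenes are named after it and reads without a unique place were not counted.

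ITGB7, the beta 7 integrin, is an adhesion receptor subunit of lymphocytes. It was the only cell surface receptor among the 10 genes with the most counts, which otherwise serve respiration, glycolysis, translation and iron storage. It gave 10019, 10045 and 10257 CPM, rank 3 of all genes by counts. Per length it reached 7416, 7416 and 7483 TPM, which is rank 15. The coefficient of variation (CV, the SD as a percentage of the mean) of its CPM was 1.29%. ITGB7 lies on chromosome 12 from 53585107 to 53601066 (GRCh37, reverse strand) and shares exon positions only with ZNF740, on the opposite strand. Its usual partner in lymphocytes, integrin alpha 4 (ITGA4, chosen after its value was seen), was at 82.0 ± 3.55 TPM.

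The transcription factors of the plasma cell were present, with 11 of 12 listed genes expressed (91.7%, against 58.2% of all protein-coding genes) and 7 in the top 10% of protein-coding genes by TPM. XBP1, which drives the expansion of the secretory apparatus, had 3063, 2936 and 2952 TPM. IRF4, on which myeloma cells depend, had 711, 710.1 and 679.6 TPM. POU2AF1, a coactivator of immunoglobulin transcription, was at 370.4 ± 2.35 TPM and PRDM1, the repressor of the B cell programme, at 226 ± 5.49 TPM. XBP1 was the highest and PRDM1 the lowest of these 4 in every library. The order of IRF4 and POU2AF1 depends on the length used, since with the canonical transcript they were at 435.5 and 499 TPM. KLF13 followed with 136 ± 2.17 TPM. The Ikaros family genes were lower, with IKZF1 at 24.0 ± 0.324 TPM and IKZF3 at 9.13 ± 0.898 TPM. The only silent member was ZBTB20, with 3, 6 and 7 counts.

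Genes of the B cell stage were mixed, with several that define it at or near 0. Of 23 genes of the B cell programme, 8 (34.8%) were expressed, against 58.2% of all protein-coding genes. Silent were 9 (39.1%), near the 36.3% of all genes, and 5 had no count in any library, as had 21.9% of all genes. The median was 0.397 TPM, against 2.84 TPM over all protein-coding genes. MS4A1 (CD20), CD22, RAG2 and DNTT were among the 5 without counts. PAX5, which maintains B cell identity, had 36, 27 and 19 counts, or 0.400 ± 0.0896 TPM. Other genes of the B cell stage were expressed. CD79B, a signalling chain of the B cell receptor, reached 65.9, 72.2 and 70.8 TPM, while its partner CD79A was at 6.11, 7.19 and 8.46 TPM. FCRLA and FCER2 (CD23), proteins of B cells, were at 18.6 ± 0.329 and 18.5 ± 0.738 TPM. SPI1 (PU.1), a factor of early B and myeloid cells, was at 21.8 ± 2.27 TPM, and BACH2, which opposes plasma cell differentiation, at 5.53 ± 0.461 TPM. PAX5, MS4A1, CD22, RAG2, DNTT and BACH2 were named after their values were seen.

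Of 22 plasma cell surface antigens, 16 (72.7%) were expressed and 5 (22.7%) were silent, against 58.2 and 36.3% of all protein-coding genes. TNFRSF17 (BCMA), the receptor through which plasma cells receive survival signals, gave 1648, 1601 and 1567 TPM, and SDC1 (CD138), the proteoglycan used to identify plasma cells, gave 1040.0, 1057 and 1061 TPM. These ranges did not overlap, and both lay far below ITGB7, the highest member. BST2 had 561 ± 17.9 TPM and CD44, a hyaluronan receptor, 547 ± 9.80 TPM, and their ranges overlapped, whereas with the canonical length they were at 342 and 558 TPM. SLAMF7 (CS1) reached 449 ± 7.34 TPM, GPRC5D 182 ± 4.43 TPM, CD28 118 ± 3.72 TPM and NCAM1 (CD56) 54.9 ± 1.72 TPM. CD38, an enzyme of the surface that is usually abundant on plasma cells, stood at 11.7, 12.5 and 10.9 TPM, below the median of the expressed genes. CD27, a receptor of normal plasma and memory B cells, had 1, 1 and 0 counts, CD74, the invariant chain, had 0, 2 and 1 counts, and KIT had none. The members from SLAMF7 to KIT in this list were named after their values were seen.

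Counted immunoglobulin mRNA was dominated by a single kappa variable gene and was small in total. All 387 entries of the immunoglobulin class, which includes pseudogenes beside 14 constant and 134 variable genes, together took 0.188, 0.202 and 0.205% of the counts. H929 is known as a line that makes IgA with a kappa light chain. IGKV3-15 had 12082, 12460.5 and 12134 TPM, rank 8 of all genes, and it held 97.4% ± 0.265 (SD, n = 3) of the counts on kappa variable genes. The next variable genes were its close relatives IGKV3-7 at 212 ± 16.8 TPM, IGKV3D-15 at 76.1 ± 20.5 TPM and IGKV3D-11 at 36.2 ± 4.57 TPM, and which of these counts belong to IGKV3-15 reads is uncertain because the genes are near copies. The constant gene IGKC, which should be present in every kappa mRNA, was lower and varied more, at 1123, 1701 and 1966 TPM. IGKV3-15 therefore exceeded IGKC per length by 10.8, 7.33 and 6.17 times, and the cause was not tested. Exon overlaps were read only among named genes, so an overlap of IGKC with an unnamed identifier could not be seen. The unnamed identifiers, the most counted of which was at 1074 ± 30.5 CPM, are also outside the immunoglobulin total given above. The 4 lambda constant genes together had 64, 63 and 68 counts, and IGKC exceeded them in counts by 71.5, 96.4 and 98.4 times.

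The counted level of the heavy chain was low in the same libraries. IGHA1, the constant gene of IgA1, had 376, 335 and 341 counts, or 33.9, 34.5 and 36.8 TPM, and it shares exon positions on the same strand with AL928768.3. IGHA1 and IGHA2 are near copies, and reads without a unique place were not counted, so the level of IgA mRNA is uncertain. IGHE and IGHA2 reached 16.6 ± 2.66 and 16.3 ± 1.38 TPM, IGHG2 had 2, 1 and 0 counts and IGHG4 had 0, 1 and 0, while IGHM, IGHD, IGHG1 and IGHG3 had no count. The 54 heavy chain variable genes together had 19, 9 and 7 counts, and the 36 lambda variable genes had 17, 24 and 12. No heavy chain variable gene was expressed by the limit of 1 CPM. The cause of these low levels was not tested. JCHAIN, which joins IgA and IgM monomers, was in contrast at 8536, 8554 and 7979 TPM, rank 11.

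**Figure D2:**
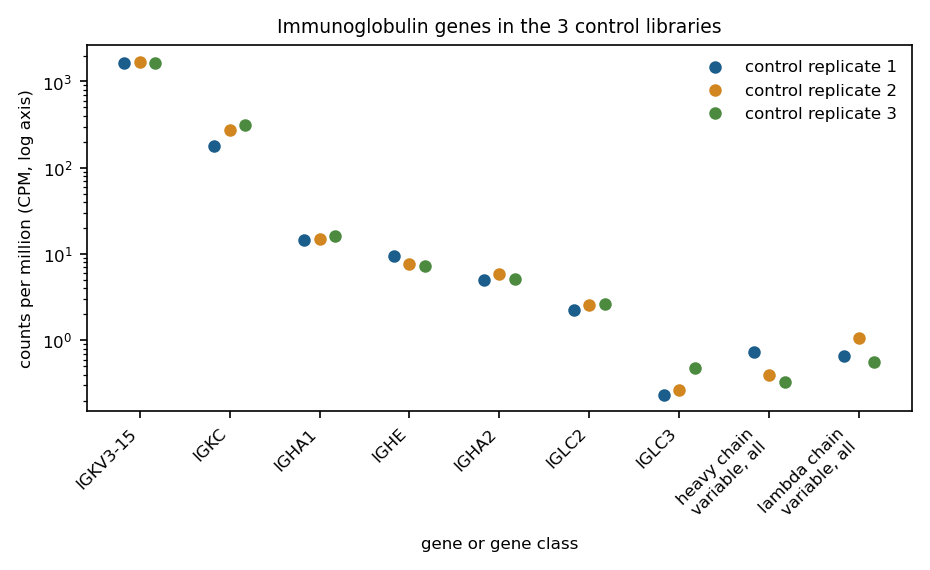
Level in CPM (log axis) of immunoglobulin genes, and of all heavy and lambda variable genes summed, with 1 point for each control library. IGKV3-15 lies near 1649 CPM in all 3 libraries, IGKC is lower with points spread further apart, and the summed heavy chain variable genes stay near or below 1 CPM.

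The secretory apparatus was expressed throughout. Against 58.2% of all protein-coding genes, all 26 genes of the ER chaperone and folding enzyme list were expressed. So were all 29 of ER targeting, translocon and glycosylation, all 17 of ER-associated degradation and all 26 of ER to Golgi transport. In the top 10% by TPM were 20, 24, 10 and 15 of them. The median levels were 236, 225, 105 and 81.1 TPM in this order. A gene in the middle of the chaperone list stood at percentile 97.4 of all protein-coding genes.

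The highest member of the chaperone list was JCHAIN, which joins IgA and IgM monomers and is not itself a chaperone. JCHAIN is included in the counts and the median given above for that list. MZB1, a plasma cell protein of antibody assembly, had 1245, 1275 and 1284 TPM. CALR, a lectin chaperone that binds calcium, had 1951, 1903 and 1919 TPM. The order of MZB1 and CALR turned with the canonical length, at 1736 and 1572 TPM. P4HB, named after its value was seen, moved from 713 to 1805 TPM with that length. PPIB, a prolyl isomerase, had 898 ± 12.2 TPM (2435 TPM with the canonical length), and PDIA4, a disulfide isomerase, 726 ± 8.12 TPM. HSPA5 (BiP), the ER Hsp70 that binds unfolded heavy chains, had 570.4, 554 and 544 TPM, and its cochaperone HYOU1 had 574, 577 and 574 TPM. HSP90B1 (GRP94) had 338 ± 11.6 TPM (881 TPM with the canonical length). The lowest member was ERO1B, an oxidase of disulfide formation, at 1.16 ± 0.0429 TPM, while its paralog ERO1A was at 46.9 ± 1.74 TPM. HSPA5, HYOU1, HSP90B1, ERO1A and ERO1B were named after their values were seen.

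In ER targeting and the translocon, OST4, RPN2 and DDOST, subunits of oligosaccharyltransferase, had 1072 ± 41.9, 1025 ± 7.50 and 972 ± 9.81 TPM. SRPRA, the receptor of the signal recognition particle, had 1009 ± 6.79 TPM. The leading genes depend on the length used. SSR2 and SSR4, named after their values were seen, moved from 713 and 583 TPM to 2368 and 2425 TPM with the canonical length. In degradation, UBE2J1, a ubiquitin-conjugating enzyme of the ER, had 592, 595 and 552 TPM and HERPUD1 384 ± 4.17 TPM, an order that turned with the canonical length, at 321 and 378 TPM. The ubiquitin ligase SYVN1 had 287 ± 7.24 TPM and DERL3 277 ± 9.16 TPM. In transport, KDELR1, which returns chaperones from the Golgi, had 1731, 1787 and 1817 TPM, and SURF4, a cargo receptor, 549 ± 6.72 TPM. Its relative KDELR3, named after its value was seen, was at 3.98 ± 0.417 TPM.

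All 12 listed genes of the unfolded protein response were expressed, against 58.2% of all protein-coding genes, and 8 of them were in the top 10%. Below XBP1, ATF4, the factor translated under stress, had 1254, 1252 and 1249 TPM. Among the 3 kinds of sensor, ATF6B reached 194 ± 3.07 TPM (148 with the canonical length), EIF2AK3 (PERK) 70.4 ± 4.25 TPM (178 with the canonical length), ERN1 (IRE1α) 64.6, 62.4 and 59.5 TPM, and ATF6 37.9 ± 1.05 TPM. DDIT3 (CHOP), which is induced under prolonged stress and promotes cell death, was at 45.7 ± 0.688 TPM. TRIB3, a target of ATF4 and CHOP, was at 99.0 ± 3.67 TPM and CHAC1, an enzyme of glutathione breakdown, at 142 ± 5.42 TPM. No untreated or stressed reference was measured, so these levels do not say whether the response was active.

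The ER stress response element (ERSE) is a promoter sequence bound by ATF6 with NF-Y in many chaperone genes. RefSeq promoters (GRCh38.p14, 250 bases before to 50 after each gene's start) were searched on both strands for ERSE, which is CCAAT, 9 unspecified bases and CCACG, and for its shorter relative ERSE-II, which is ATTGG, 1 unspecified base and CCACG. ERSE-II was added after the data were seen. Every site found in the listed secretory and stress response genes is shown, since the text turns on which of these promoters hold the element, with the specified letters in capitals and the strand given relative to the gene. Sequences are written along the gene's strand.
HSPA5 (chr9:125241386-125241414, reverse strand; ERSE, same strand): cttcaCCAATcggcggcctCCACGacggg
XBP1 (chr22:28800598-28800626, reverse strand; ERSE, same strand): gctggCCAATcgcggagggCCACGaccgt
CANX (chr5:179698773-179698801, forward strand; ERSE, same strand): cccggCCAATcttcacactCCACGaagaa
HSP90B1 (chr12:103930211-103930239, forward strand; ERSE, same strand): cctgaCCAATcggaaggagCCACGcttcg
HSP90B1 (chr12:103930316-103930344, forward strand; ERSE, opposite strand): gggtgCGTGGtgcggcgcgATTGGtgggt
CALR (chr19:12938379-12938407, forward strand; ERSE, opposite strand): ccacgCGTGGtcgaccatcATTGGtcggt
CRELD2 (chr22:49918549-49918577, forward strand; ERSE, opposite strand): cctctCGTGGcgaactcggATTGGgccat
ERO1B (chr1:236282178-236282206, reverse strand; ERSE, opposite strand): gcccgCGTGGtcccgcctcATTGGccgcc
HERPUD1 (chr16:56932020-56932040, forward strand; ERSE-II, same strand): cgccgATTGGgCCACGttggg
SDF2L1 (chr22:21642109-21642129, forward strand; ERSE-II, opposite strand): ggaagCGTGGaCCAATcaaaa
HYOU1 (chr11:119057269-119057289, reverse strand; ERSE-II, opposite strand): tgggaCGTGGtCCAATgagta
HYOU1 (chr11:119057375-119057395, reverse strand; ERSE-II, opposite strand): cgtgaCGTGGtCCAATcccag

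The element was found in 6 of the 25 chaperone promoters at hand (24.0%), against 19 of 14998 promoters of measured protein-coding genes (0.127%) and 7 of 1622 promoters of the top 10% by TPM (0.432%). It was in 1 of 12 promoters of the unfolded protein response list, that of XBP1, and in none of the 25 translocon, 13 degradation and 23 transport promoters. ERSE-II was in 15 of all 27305 promoters, and the HERPUD1 promoter was its only match among the 13 of degradation. The genes with a site differed widely in level, from XBP1 at 2984 TPM and CALR at 1924 TPM to CRELD2 at 32.8 TPM and ERO1B at 1.16 TPM, so a match did not go with a high level in each case. Both motifs hold the letters of a CCAAT box and of CCACG, and a match is a description of these letters and not a measured binding site. ERSE is known from chaperone promoters, so its larger share in that list is not an independent result.

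All 22 genes of the proliferation list were expressed, against 58.2% of all protein-coding genes, with 19 in the top 10% (17 with the canonical length). The list also holds inhibitors of the cell cycle, so these shares are not those of cell division genes alone. RRM2, which supplies deoxynucleotides, had 204, 206 and 202 TPM, and MCM7, of the replicative helicase, 202 ± 2.60 TPM. CDKN1A (p21), an inhibitor of the cell cycle, was at 340.2, 351 and 355 TPM, the highest of the list with the union of exons but not with the other lengths, under which RRM2 was higher. CDKN1B, another inhibitor, was the lowest of the list with the union of exons, at 14.8 TPM (31.4 with the canonical length). It was named after its value was seen. MKI67 (Ki-67), named after its value was seen, had 104 ± 6.29 TPM.

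Of 23 translocation and driver genes of myeloma, 21 (91.3%) were expressed, against 58.2% of all protein-coding genes. FGFR3, a receptor tyrosine kinase, had 226, 224 and 231 TPM and the histone methyltransferase gene NSD2 had 141, 138 and 135 TPM, and NSD2 shares exon positions with 1 other gene on its strand. The order of FGFR3 and NSD2 turned with the canonical length, at 142 and 206 TPM. These neighbours on chromosome 4 are joined to the heavy chain locus on chromosome 14 by a recurrent translocation of myeloma, which H929 is known to carry. CDKN2C, a cell cycle inhibitor, was at 299 ± 0.897 TPM (503 with the canonical length). MYC had 191 ± 4.75 TPM and TENT5C, a poly(A) polymerase, 198 ± 5.16 TPM, and their ranges overlapped, while with the canonical length they were at 174 and 109 TPM. The D cyclins stood close together, with CCND1 at 50.4 ± 2.69, CCND2 at 37.9 ± 0.526 and CCND3 at 35.0 ± 1.26 TPM. Their order turned with the canonical length, under which CCND3 was the highest at 55.2 TPM, CCND1 was at 31.4 TPM and CCND2 at 25.8 TPM. MAF was at 39.6 ± 1.42 TPM, and MAFA had 1, 0 and 0 counts. NRAS, a small GTPase of growth factor signalling, was at 154 ± 8.68 TPM. NSD2, the cyclins and the MAF genes were named after their values were seen.

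Cancer-testis antigens, whose genes are normally restricted to germ cells, were present, some at high levels. Of 12 listed genes, 8 (66.7%) were expressed, near the 58.2% of all protein-coding genes, and 7 stood in the top 10%. SSX1 had 434, 429 and 454 TPM, MAGEA1 had 311, 309 and 311 TPM and MAGEA4 had 302, 302 and 305 TPM. MAGEA3, MAGEC1, MAGEA12 and MAGEA6 lay between 132 and 74.4 TPM. MAGEA3 and MAGEA6 are near copies, so their split is uncertain. PRAME was lower at 8.29 ± 0.323 TPM, and SSX2 had no count, which is uncertain because SSX2 has a near copy as well. With the canonical length, which 10 of the 12 genes have in the annotation, 3 of them stood in the top 10%, with SSX1 at 243 TPM, MAGEA1 at 172 TPM and MAGEA4 at 328 TPM.

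Markers of other lineages were mostly silent. Of 116 genes in 11 lists, 85 (73.3%) were silent, against 36.3% of all protein-coding genes, 50 had no count in any library, and 18 (15.5%) were expressed. All 7 pluripotency and germ line markers were silent, as were 10 of 11 fibroblast, 8 of 9 endothelial, 8 of 9 hepatocyte and 12 of 15 monocyte and granulocyte markers. CD14, MPO and ELANE of myeloid cells, GATA1 of erythroid cells, VWF and CDH5 of endothelium and COL1A2 and DCN of fibroblasts all had no count. The summed level of the pluripotency list was 0.0446 to 0.142 CPM, and that of the fibroblast list 5.06 to 6.29 CPM, most of it ACTA2 at 5.24 ± 0.564 CPM. The neuron and glia list went the other way, with 3 of 10 genes silent, a smaller share than the 36.3% of all genes, and 4 expressed, led by SLC17A7, a glutamate transporter of synaptic vesicles, at 2.30 ± 0.312 TPM and SYP, a synaptic vesicle protein, at 1.08 ± 0.174 TPM. Of the 10 epithelial markers 5 were silent and 5 expressed. Of 13 T cell markers 9 were silent, of 11 NK cell markers 7, of 12 erythroid and megakaryocyte markers 9 and of 9 muscle markers 7. Values of such low counts vary with sampling and give no order.

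**Figure D3:**
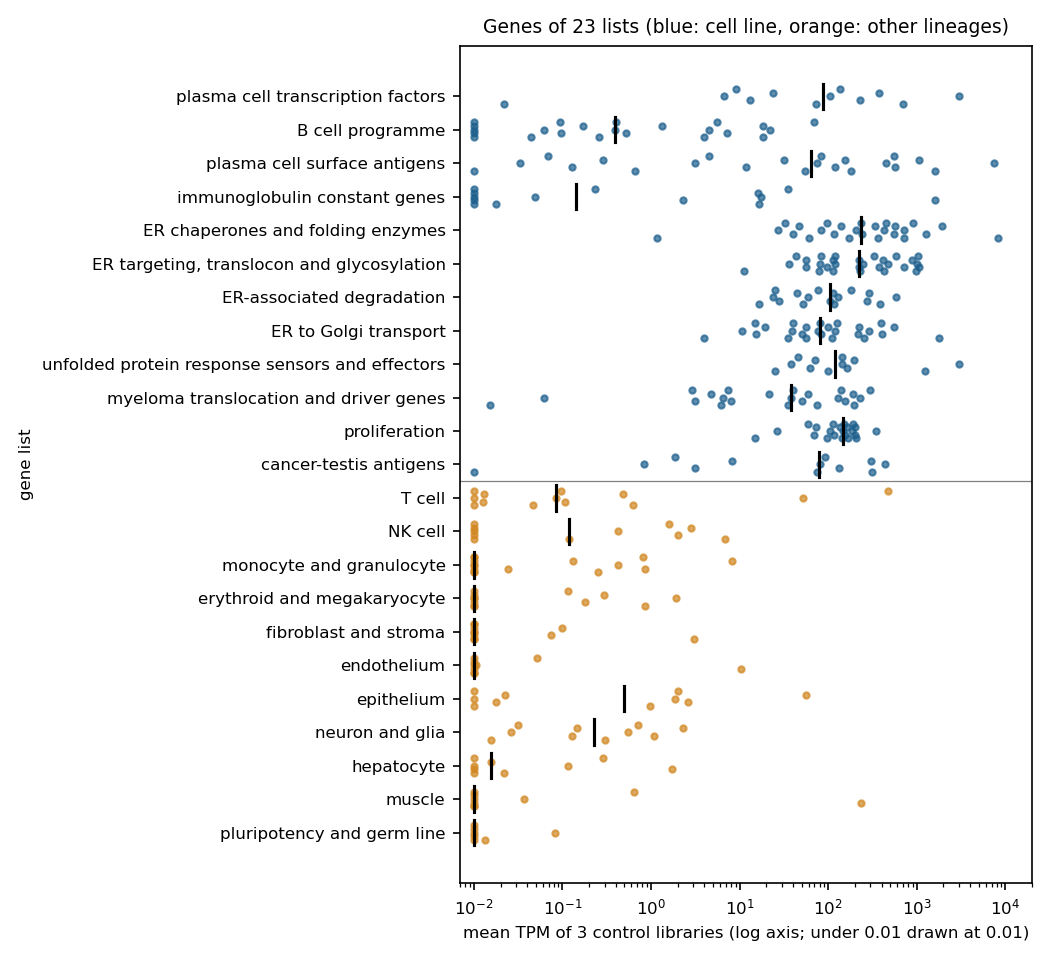
Mean TPM over the 3 control libraries (log axis, values under 0.01 drawn at 0.01) of each gene of 23 lists, with a black bar at each list's median. Chaperone, translocon and proliferation genes gather around 100 TPM or above, most points of the other lineages (orange) lie under 1 TPM, and TRBC2, MB, KRT18 and CD3E stand apart to the right.

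A few genes of other lineages were well expressed in every library. TRBC2, a constant gene of the T cell receptor beta chain, had 466, 489 and 469.6 TPM. CD3E, the epsilon chain of the T cell receptor complex, had 51.3, 53.8 and 51.4 TPM. Other T cell markers were at or near 0. CD3D, CD5 and CD8B had no count, CD3G had 3, 0 and 1, CD2 had 2, 0 and 1 and CD247 had 9, 3 and 7. MB, myoglobin, the oxygen store of muscle, had 231, 232 and 239 TPM, while MYH7, CKM and MYOD1 had none. KRT18, a keratin of simple epithelia, had 54.7, 56.0 and 57.6 TPM, against 2.59 ± 0.149 TPM for its partner KRT8, and its level is uncertain because 67 pseudogenes are named after it and it shares exon positions with KRT8 and AC107016.2. ESAM of endothelium was at 10.35 ± 0.0944 TPM, S100A9 at 8.24 ± 1.26 TPM with S100A8 at 0, and GNLY of cytotoxic cells at 6.85 ± 0.454 TPM. The defining partners of TRBC2 and CD3E, MB, ESAM and S100A9 named here or above had no count or under 10 counts in any library.

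The 3 libraries differed little. The biological coefficient of variation, edgeR's estimate of the spread beyond counting error, was 3.15% over the 13818 genes that passed its filter on low counts. Genes with a mean of 30 to 100 normalized counts had a median CV of 13.4%, beside 13.4% expected from the mean count alone. With 1000 to 3000 counts the median was 3.20% against 2.49%, and above 10000 counts it was 2.15% against 0.722%. Spread other than counting error was thus seen in the abundant genes. At lower counts it cannot be judged this way, because the median CV of 3 values lies below the true CV. No library was a copy of another, since the chi-square per gene between pairs was 2.20 to 3.05.

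**Figure D4:**
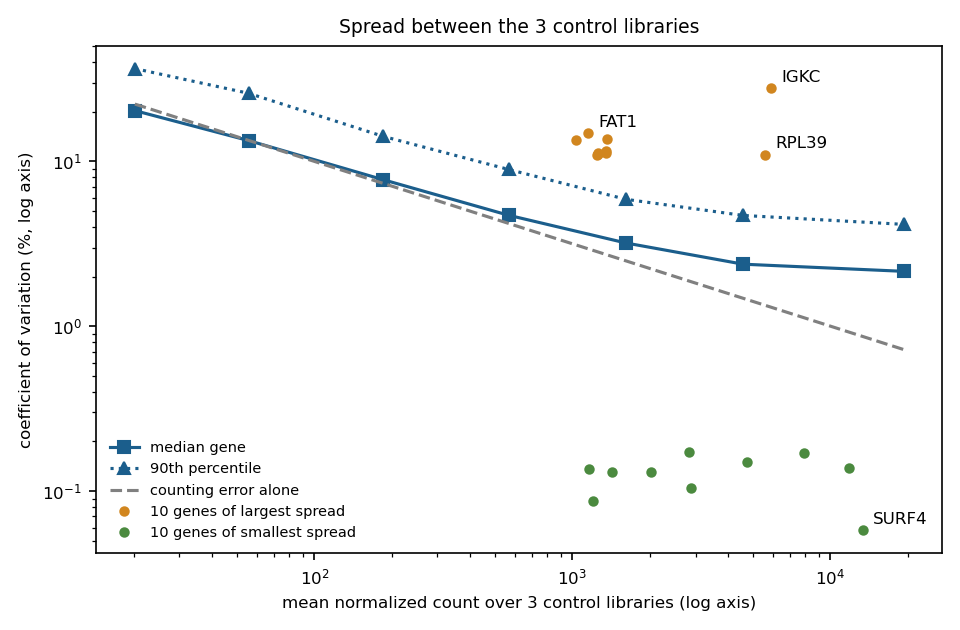
Coefficient of variation over the 3 control libraries (%, log axis) against the mean normalized count (log axis), as the median and 90th percentile of genes by abundance, with counting error alone as a dashed line. The median falls from 20.3 to 2.15%, IGKC at 27.9% stands far above all other named genes, and SURF4 is lowest at 0.0577%.

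The median CV of the 4267 genes whose mean reached 1000 normalized counts was 2.85%, and only IGKC was above 15%. IGKC had 4107, 6229 and 7346 normalized counts, a CV of 27.9%, whereas IGKV3-15 varied by 1.71% and JCHAIN by 2.72% in the same libraries. The next were FAT1 (14.8%), an atypical cadherin, CEP350 (13.6%), of the centrosome, INO80B (13.5%), of a chromatin remodelling complex, MDN1 (11.6%), of ribosome assembly, and NIPBL (11.2%), the cohesin loader. The last of the 10 were SEC61G (11.2%), a translocon subunit, ASPM (11.1%), of the spindle, RPL39 (11.01%), of the ribosome, and TGFBR3L (10.9%). FAT1 gave 1326, 1135 and 987 normalized counts and CEP350 gave 1506, 1427 and 1152. Of the 19 genes with a CV over 10%, 14 were lowest in replicate 3, and their median transcript length was 10425 bases, against 3190 bases for all 4267. The 10 lowest CVs, 0.0577 to 0.171%, were those of SURF4, TRIP13, TYMS, ELK3, DYM, KIAA1191, SND1, ZNF207, RHOA and FARSB. They lie below the 0.866 to 2.93% that counting error gives for these genes. As the low end of 4267 CVs from 3 libraries, they were not read as a trait of the genes. MT-CO1, another subunit of cytochrome c oxidase, had a CV of 8.83% and was highest in replicate 1, while MT-CO2 and MT-CO3 varied by 2.80 and 2.05%.

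The deviations of each library followed transcript length and GC content. Across the 9858 protein-coding genes whose mean reached 100 normalized counts, the deviation of replicate 3 from the mean of the 3 libraries had a Spearman correlation of -0.32 with transcript length and 0.441 with GC content. The correlations were 0.176 and -0.268 in replicate 1, and 0.188 and -0.21 in replicate 2. These are descriptions across genes, which share each library's depth and composition and are not independent. In the longest 10% of transcripts the median deviation was -0.05 on the log2 scale in replicate 3, 0.03 in replicate 1 and 0.02 in replicate 2, so the trend was small beside the levels described above. The long genes of large spread moved with this trend, and its part in their spread was not tested.

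**Figure D5:**
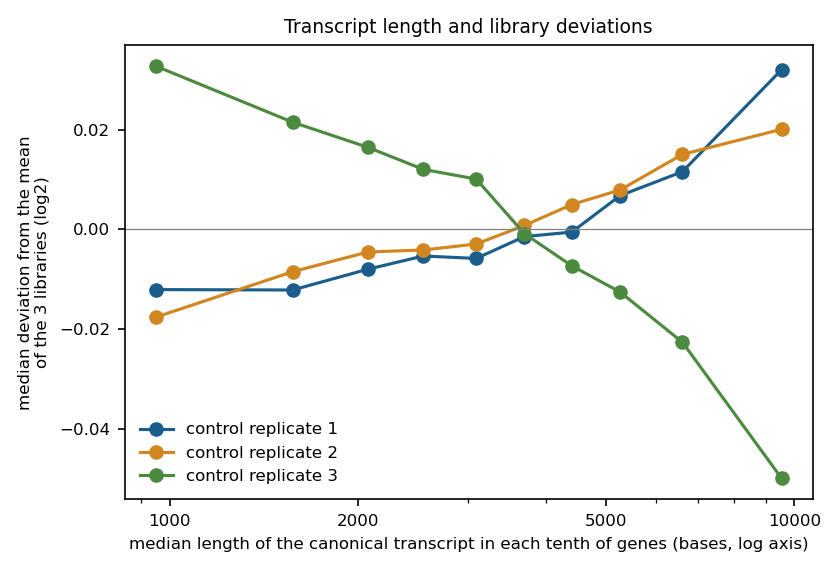
Median deviation of each control library from the mean of the 3 (log2) in 10 equal groups of 9858 protein-coding genes ordered by the length of the canonical transcript (bases, log axis). Replicate 3 falls from 0.03 in the shortest to -0.05 in the longest group, and the other replicates rise.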

How the data were processed

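The deposited values are raw counts per gene. To make them, the authors removed adapters (cutadapt 1.12), mapped to GRCh37 (hg19, Ensembl annotation) by STAR 2.5.3a and counted by HTSeq 0.6.1p1, with versions from the submitters' processing notes. The library kit was stranded. The strand and overlap settings of the counting are not given in the sources used here, so genes that share exon positions, and near copies, are named as uncertain. The 5 summary lines, 21.4 to 22.1% of all counts in a file, were left out of totals. The authors' normalized table and the IRE1 libraries were not used.

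Of 57905 identifiers, 55538 were given names, positions and lengths from GENCODE (release 44, GRCh37). The others held 0.683 to 0.688% of the counts, and the most counted of them was ENSG00000231486 at 1074 ± 30.5 CPM. Their exon overlaps with named genes could not be seen. CPM is the count scaled to 1000000 counts on genes. TPM uses the union of a gene's exons. Spread was computed with edgeR 4.0.16 (R 4.3.3) after its default filter and TMM scaling, checked on simulated data. Normalized counts are at the scale of the mean library. No test was made, since there is 1 group. Alternatives were each library left out, the summary lines in the total, TMM, DESeq2 1.42.0 size factors, other thresholds and other lengths. Python 3.11.15 with pandas 2.3.3 was used.

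The libraries and gene lists were chosen with earlier results of these data known. The genes named are the 20 highest by CPM and by TPM, the 5 highest of each list, any member of lists under 16 genes, the 10 largest and 10 smallest CVs among genes of at least 1000 normalized counts, and the highest noncoding (5) and immunoglobulin variable (10) genes. Genes outside this rule are said to be so, and some genes within it are not reported here.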

Additional observations from a re-analysis of the deposited data

How the results depend on the processing

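No paired analysis was possible because the results come from no test and a single group was described. Without 1 library, expressed protein-coding genes numbered 11347 to 11386, silent ones 7116 to 7139 and silent markers of other lineages 86 to 88, and the biological coefficient of variation was 2.56 to 3.71%, lowest without control replicate 3. TMM and DESeq2 size factors left the counts of expressed and silent genes at 11300 and 7036. With the summary lines in the total, the 10 most abundant genes took 6.60%, mitochondrial mRNA 3.70%, immunoglobulin genes 0.155% and ribosomal protein genes 8.999% of the counts. A limit of 1 TPM gave 10842 expressed genes, 0.1 CPM gave 5602 silent genes, and no count in any library gave 4250. IGKC was at 1412 to 1833 TPM without 1 library. Length was the choice that moved levels most, by 0.554 to 11.2 times with the canonical transcript, and SNHG29 moved most, from 403 to 4512 TPM. These moves include the rescaling of all levels, which also lowered genes of unchanged length such as MT-CO2. The median percentiles of the plasma cell and secretory lists moved by less than 5 points under each length. Depth limits genes under 0.142 CPM.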

Other observations

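Several large gene families with a tissue-restricted pattern were silent with few exceptions. These families were chosen after the data were seen, and over all protein-coding genes 58.2% were expressed, 36.3% were silent and 21.9% had no count. Of 369 olfactory receptor genes, 367 were silent, 345 had no count in any library, and only OR2W3 was expressed, at 13.8 TPM and at 3.74, 4.19 and 4.02 CPM in the 3 libraries. All 92 keratin-associated protein genes, all 40 beta defensins, all 24 bitter taste receptors and all 17 GAGE genes were silent. Of the 11 MAGE-A genes 5 were expressed, and of the 5 SSX genes only SSX1. The GAGE genes, and some SSX genes and beta defensins, are near copies of one another. Reads without a unique place were not counted, so the lack of counts on such copies is uncertain. In the HOX clusters, 2 of 10 HOXB genes (HOXB7 and HOXB13), 2 of 9 HOXC genes (HOXC9 and HOXC13) and 0 of 9 HOXD genes were expressed, and HOXB7 was highest at 31.0 TPM. Of 10 globin genes, HBD at 16.6 TPM and HBE1 at 5.42 TPM were expressed.

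Long noncoding RNAs with the most counts were SNHG29 at 1101 ± 12.9 CPM (SD, n = 3), GAS5 at 375 ± 5.35 CPM, both hosts of small nucleolar RNAs, NEAT1, the scaffold of paraspeckles, at 361 ± 7.31 CPM, LINC01480 at 345 ± 5.43 CPM and ENSG00000272405 at 320.0 ± 4.63 CPM. Poly(A) purification sets which noncoding RNAs can be seen.

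Several levels of single genes, all named after their values were seen, stand out. NES, an intermediate filament protein best known from neural progenitors, had 3177, 3006 and 2981 CPM, rank 23 of all genes by counts, and VIM had 2479 ± 16.8 CPM, rank 33. ATF5, a factor related to ATF4, had 2303, 2424 and 2434 TPM. LAMP5, a membrane protein of the endosome, was at 347 ± 10.2 TPM. FTL exceeded FTH1, the other chain of ferritin, by 40.2 ± 0.625 times per length, with 772 ± 18.0 TPM for FTH1. The ratio depends on the length and fell by more than 1.5 times with the canonical transcript, under which FTL was at 17219 and FTH1 at 713 TPM. FTH1 has 25 pseudogenes named after it.

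Over the autosomes and chromosome X, the share of protein-coding genes that were expressed ranged from 50.0% on chromosome 21 to 70.1% on chromosome 22. The median level of the expressed genes was lowest on chromosome 13, at 5.87 TPM over 182 genes, and highest on chromosome 20, at 26.8 TPM over 314 genes.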
